A study of Mus musculus with 14 samples.

Results

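Collagens are the structural proteins of the extracellular matrix, and in mouse each chain is named Col, a type number, the letter a and a chain number. All genes whose symbol had exactly that form were taken: 43 of the 21761 genes counted over exons, with the same 43 counted over introns. The rule finds 44 symbols in the RefSeq gene table; Col6a3 is not analysed here. The genes were read as a possible measure of stromal cells in macrophage cultures, and each library is given separately.

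The cells were bone marrow derived macrophages of FVB/Hsd mice, grown in L929-conditioned medium and harvested untreated on day 7 of differentiation. They had been infected with retroviruses carrying short hairpin RNAs and selected with puromycin. Wdr82, a subunit of complexes that act on chromatin and on transcription termination, was targeted by hairpin sh1137 in 1 library and by hairpin sh830 in another, and 2 libraries carried a scrambled hairpin. Ribosome-depleted total RNA was sequenced with a stranded kit, so unspliced transcripts were also captured; these 4 libraries are used here, of 14 samples in the study, and the other 10 are not analysed here. The strain, medium, infection and selection were common to both groups, and the labels used here give neither the age nor the sex of the mice, nor whether bones were pooled. Nothing in the labels says that the libraries came from separate animals or cultures, so p-values measure the spread between these libraries, and in the knockdown group that spread also holds the difference between the hairpins.

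Collagen chains wind into triple helices in the endoplasmic reticulum, with the help of prolyl and lysyl hydroxylases and the chaperone encoded by Serpinh1, and are trimmed and cross-linked outside the cell. Fibril-forming collagens (types I, II, III, V, XI and XXVII) make the cables of bone, skin and cartilage and are textbook products of fibroblasts, osteoblasts and chondrocytes. Type IV collagens make the sheets of basement membranes, FACIT collagens (types IX, XII, XIV, XVI and others) attach to fibrils, and the multiplexins XV and XVIII lie where basement membranes meet tissue.

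For Col1a2, Col5a1, Col15a1 and Col16a1, the promoter windows held in the RefSeq table (build GRCm38.p6) are shown. Each gives the 250 bases before the annotated start, 5′ to 3′ on the plus strand. CCAAT boxes and GC boxes (GGGCGG) on either strand are in capitals. The windows are shown because Col1a2 and Col5a1 were far higher in 1 library of each group than in the other. Col15a1 and Col16a1, in contrast, were higher in both knockdown libraries than in both scrambled libraries. Col1a1, Col2a1, Col5a2, Col12a1 and Col14a1, on which the comparisons also turn, have no entry in that table.
Col1a2, chr6:4505368-4505617: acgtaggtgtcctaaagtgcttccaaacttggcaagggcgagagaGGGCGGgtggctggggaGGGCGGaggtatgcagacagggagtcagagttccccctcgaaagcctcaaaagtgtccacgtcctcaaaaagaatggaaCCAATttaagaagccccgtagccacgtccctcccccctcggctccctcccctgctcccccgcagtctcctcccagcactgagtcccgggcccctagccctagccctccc
Col5a1, chr2:27886175-27886424: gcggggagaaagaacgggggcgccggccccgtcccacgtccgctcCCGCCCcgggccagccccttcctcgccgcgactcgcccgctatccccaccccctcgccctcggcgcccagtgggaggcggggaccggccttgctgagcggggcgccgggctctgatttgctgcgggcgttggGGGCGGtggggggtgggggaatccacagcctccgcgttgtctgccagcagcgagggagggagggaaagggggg
Col15a1, chr4:47207762-47208011: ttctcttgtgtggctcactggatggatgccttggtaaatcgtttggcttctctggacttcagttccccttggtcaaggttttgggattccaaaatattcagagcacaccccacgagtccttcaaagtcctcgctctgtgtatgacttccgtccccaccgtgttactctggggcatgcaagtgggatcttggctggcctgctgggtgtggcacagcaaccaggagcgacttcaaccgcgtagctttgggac
Col16a1, chr4:130047590-130047839: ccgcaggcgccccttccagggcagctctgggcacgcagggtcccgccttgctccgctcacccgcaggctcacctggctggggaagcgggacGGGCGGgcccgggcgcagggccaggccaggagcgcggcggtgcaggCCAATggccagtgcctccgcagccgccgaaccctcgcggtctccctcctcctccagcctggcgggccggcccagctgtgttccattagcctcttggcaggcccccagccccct
The Col1a2 window held 1 CCAAT box, 109 bases before the start, and 2 GC boxes, at 205 and 188 bases before it. The Col5a1 window held 2 GC boxes and no CCAAT box, the Col16a1 window 1 of each, and the Col15a1 window neither. The table held 32851 windows of 300 bases (250 before to 50 after the start), and only the 250 bases before the start were searched. In those bases, 33.8% of the windows held CCAAT and 32.7% held GGGCGG on either strand. Of the 38 windows of collagen genes, 34.2% held CCAAT and 57.9% held GGGCGG in the same bases. These matches describe letters in a window and are not evidence of binding.

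The libraries held 34787556 exon counts for sh1137 and 43372731 for sh830, against 40074419 for scrambled 1 and 42635790 for scrambled 2. Levels are given as CPM, counts per 1e6 gene exon counts of the library. The 4 libraries fell apart in a way that the groups do not give: introns held 44.2% of the exon and intron counts in sh1137 and 15.2% in sh830, against 40.4% in scrambled 1 and 14.6% in scrambled 2. Wdr82 itself had 27.1 CPM in sh1137 and 39.6 CPM in sh830, against 102 CPM in scrambled 1 and 135 CPM in scrambled 2, so its levels matched the labels. The 14 macrophage genes listed, such as Lyz2 and Mpeg1, were detected in every library and summed to 11724 and 17981 CPM in sh1137 and sh830, against 16240 and 17033 CPM in scrambled 1 and 2. In bulk RNA, a change in the number of cells of a type and a change in RNA per cell cannot be told apart.

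Of the 43 collagens, 39 had at least 1 exon count in the 4 libraries together and 4 had none (Col9a1, Col6a4, Col26a1 and Col13a1). A count of 0 allows a level of up to 0.0862 CPM in sh1137, the shallowest library, at a limit of 3 counts, which like all intervals here covers counting error only. A mean of at least 1 CPM over the 4 libraries was reached by 22 collagens, and 21 stayed under it, of which 11 had fewer than 20 exon counts in total. Summed over all 43, the collagens had 337 CPM in sh1137 (95% Wilson interval 331 to 343) and 467 CPM in sh830 (460.4 to 473), against 167 CPM in scrambled 1 (163 to 171) and 135 CPM in scrambled 2 (132 to 139). In introns, scaled to the intron counts of all genes, they had 385 CPM in sh1137 and 463 CPM in sh830, against 158 CPM in scrambled 1 and 159 CPM in scrambled 2. Both knockdown libraries were thus above both scrambled libraries, with a ratio of group means of 2.655 in exons and 2.67 in introns. Without sh830 the ratio was 2.23 in exons and 2.42 in introns, and without scrambled 2 it was 2.40 and 2.68. With 2 libraries a group an exact two-sided permutation test cannot go below 0.33, so these sums carry no test.

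The sums hide collagens that went with different libraries. Fibril-forming chains summed to 16.8 CPM in sh1137 and 201 CPM in sh830, against 10.9 CPM in scrambled 1 and 55.2 CPM in scrambled 2. Type IV chains summed to 59.7 CPM in sh1137 and 22.0 CPM in sh830, against 53.4 CPM in scrambled 1 and 11.9 CPM in scrambled 2. Multiplexins summed to 136 CPM in sh1137 and 75.2 CPM in sh830, against 51.0 CPM in scrambled 1 and 31.3 CPM in scrambled 2. The fibril-forming sum was thus high in sh830 and scrambled 2, the type IV sum in sh1137 and scrambled 1, and the multiplexin sum in both knockdown libraries. FACIT collagens, 9 of 10 listed having a row, summed to 107 CPM in sh1137 and 152 CPM in sh830, against 35.6 CPM in scrambled 1 and 29.5 CPM in scrambled 2.

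Per kilobase of exon, the order of the collagens also differed between libraries. In sh1137, Col18a1 led with 19.0 CPM per kb, followed by Col14a1 with 10.9 and Col4a5 with 7.49. In sh830, Col14a1 led with 14.8 CPM per kb, followed by Col1a1 with 11.0, Col18a1 with 10.8 and Col5a2 with 8.73. In scrambled 1, Col18a1 led with 7.69 CPM per kb, followed by Col4a5 with 6.15, Col10a1 with 2.80 and Col14a1 with 2.60. In scrambled 2, Col18a1 led with 4.71 CPM per kb, followed by Col14a1 with 2.39, Col5a2, Col1a2 with 2.01 and Col1a1 with 1.84. Col18a1 and Col14a1 were among the leading chains of all 4 libraries, whereas Col1a1 and Col5a2 were so only in sh830 and scrambled 2.

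**Figure D1:**
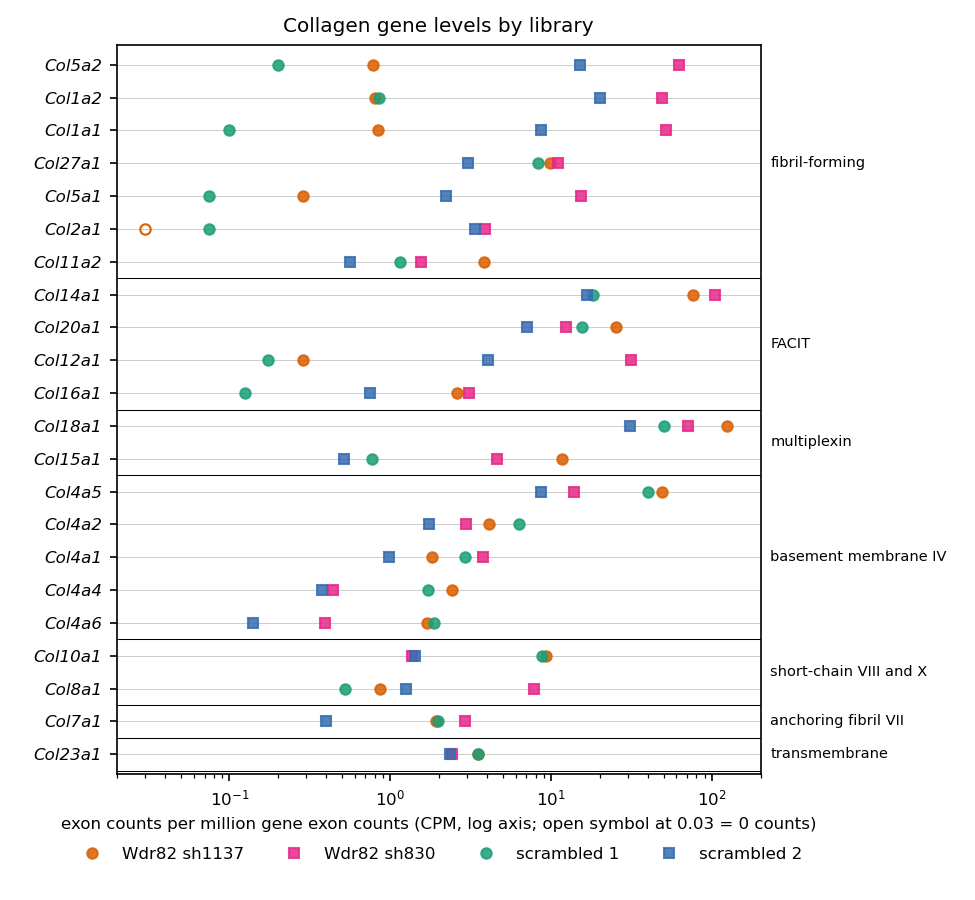
Exon level of the collagens with a mean of at least 1 CPM in each library (CPM, log axis), 1 point a library; the open symbol stands for 0 counts, drawn at the axis floor. The fibril-forming chains Col1a1, Col1a2, Col5a1, Col5a2 and Col2a1 and the FACIT Col12a1 lie far apart within each group, whereas Col14a1, Col15a1 and Col16a1 have both knockdown libraries above both scrambled libraries.

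By level alone, the 22 collagens with a mean of at least 1 CPM fell into 4 sets. In 6 of them both knockdown libraries were above both scrambled libraries, as in 16.9% of the 12039 genes with that mean. These were Col11a2, Col14a1, Col15a1, Col16a1, Col18a1 and Col27a1. None had both knockdown libraries below both scrambled ones, as 14.7% of those genes had. In another 7 (Col1a1, Col1a2, Col2a1, Col5a1, Col5a2, Col8a1 and Col12a1) the libraries sh830 and scrambled 2 were both above sh1137 and scrambled 1, as in 27.2% of genes, and in 7 more (Col4a2, Col4a4, Col4a5, Col4a6, Col10a1, Col20a1 and Col23a1) they were both below, as in 35.5% of genes. The last 2, Col4a1 and Col7a1, had neither order. A step of at least 4-fold separated sh830 and scrambled 2 from the other libraries for 6 collagens and for 0.482% of genes; that fold was chosen after the values were seen.

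The first comparison asked which collagens differed between Wdr82 knockdown and scrambled macrophages. Counts were tested for every gene and authors' region with edgeR's quasi-likelihood test and Benjamini-Hochberg adjustment, calling adjusted p under 0.05. With group as the only term, 0 of the 31 collagens that passed the filter on low counts were called, as was 0% of the 13884 genes tested in either direction. At an unadjusted p under 0.05, 4 collagens were higher and 0 lower, among 437 genes higher and 209 lower. DESeq2 called 2 collagens higher, Col14a1 and Col15a1, with 1.09% of genes higher and 0.158% lower. With a term for the intron-rich (sh1137, scrambled 1) and intron-poor (sh830, scrambled 2) libraries, edgeR called 10 collagens higher and 0 lower, with 6.06% of genes higher and 7.79% lower. That term came from the data and not from the labels, and it leaves 1 residual degree of freedom. The 12 other collagens were not tested.

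Col14a1, a FACIT collagen bound to mature fibrils, was higher in both knockdown libraries, with the scrambled libraries close together. The gene (identifier 12818, mm9 chr15:55139305-55352358, plus strand) had 2658 counts or 76.4 CPM in sh1137 and 4504 counts or 104 CPM in sh830, against 731 counts or 18.2 CPM in scrambled 1 and 714 counts or 16.7 CPM in scrambled 2. The groups did not overlap, and the levels averaged 90.1 ± 19.4 CPM in the knockdown libraries (SD, n = 2) and 17.5 ± 1.06 CPM in the scrambled libraries (SD, n = 2). The log2 difference was 2.31 ± 0.29 (SE) by group alone, with an adjusted p of 0.41 by edgeR. With the library term it was 2.28 ± 0.16 with an adjusted p of 0.0048 by edgeR, and DESeq2 with group alone gave an adjusted p of 1.8e-07. The direction was the same without any 1 of the 4 libraries, at log2 differences of 2.00 to 2.57.

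The multiplexins Col15a1 and Col18a1 had the same order. Their C-terminal parts are the fragments restin and endostatin, which inhibit angiogenesis. Col15a1 (identifier 12819, mm9 chr4:47220884-47326037, plus strand), whose promoter window is printed above, had 405 counts or 11.6 CPM in sh1137 and 199 counts or 4.59 CPM in sh830, against 31 counts or 0.774 CPM in scrambled 1 and 22 counts or 0.516 CPM in scrambled 2. Both knockdown libraries stood well above both scrambled ones, and the knockdown libraries themselves differed more than the scrambled ones. Its log2 difference was 3.56 ± 0.63 by group alone (edgeR adjusted p 0.42) and 3.48 ± 0.32 with the library term (edgeR adjusted p 0.0069). Without any 1 library, by group alone, it lay between 2.83 and 4.05. Col18a1 (identifier 12822, mm9 chr10:76514924-76629275, minus strand) had 4314 counts or 124 CPM in sh1137 and 3061 counts or 70.6 CPM in sh830, against 2014 counts or 50.3 CPM in scrambled 1 and 1311 counts or 30.7 CPM in scrambled 2. The groups did not overlap, but sh830 and scrambled 1 were neighbours in level. The log2 difference was 1.19 ± 0.35 by group alone (edgeR adjusted p 0.56) and 1.18 ± 0.087 with the library term (edgeR adjusted p 0.0052).

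Col16a1, a FACIT collagen found near cells in many connective tissues, had 90 counts or 2.59 CPM in sh1137 and 134 counts or 3.09 CPM in sh830, against 5 counts or 0.125 CPM in scrambled 1 and 32 counts or 0.751 CPM in scrambled 2. The groups did not overlap, and scrambled 1 was far below the rest. Its log2 difference was 2.84 ± 0.60 with the library term (edgeR adjusted p 0.036) and 2.59 ± 0.99 without it (edgeR adjusted p 0.70). Col11a2, a chain of the cartilage fibril collagen XI, had 3.82 CPM in sh1137 and 1.54 CPM in sh830, against 1.15 CPM in scrambled 1 and 0.563 CPM in scrambled 2, and was called with the library term at 1.53 ± 0.34 (edgeR adjusted p 0.041). Col20a1, a FACIT collagen, had 25.2 CPM in sh1137 and 12.4 CPM in sh830, against 15.5 CPM in scrambled 1 and 7.06 CPM in scrambled 2. Here the groups overlapped, since sh830 was below scrambled 1, and the call at 0.68 ± 0.14 (edgeR adjusted p 0.032) came from the library term. Col27a1, a fibril-forming chain of cartilage, had 9.89 CPM in sh1137 and 11.0 CPM in sh830, against 8.26 CPM in scrambled 1 and 3.03 CPM in scrambled 2. It did not overlap between groups but was not called, at 0.98 ± 0.41 with the library term (edgeR adjusted p 0.16); it also holds the microRNA gene Mir455 on its own strand.

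**Figure D2:**
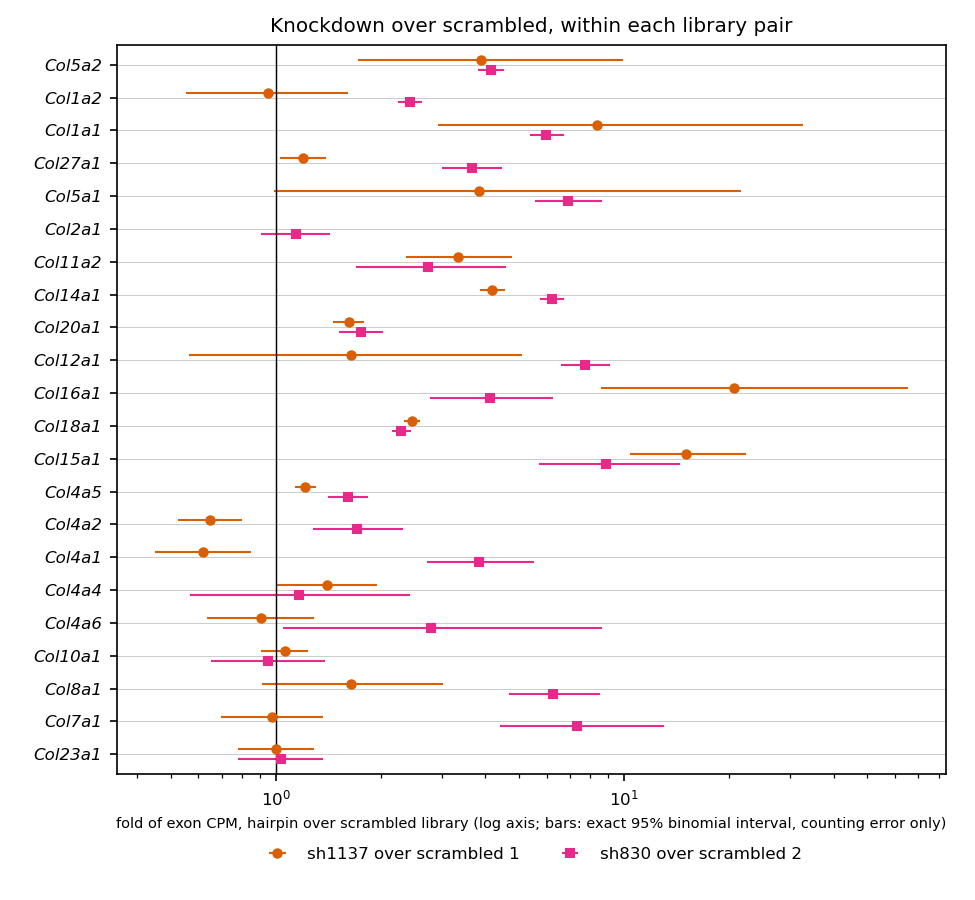
Ratio of exon CPM (log axis) for the 22 collagens with a mean of at least 1 CPM, sh1137 over scrambled 1 and sh830 over scrambled 2. Bars are 95% exact intervals that cover counting error only. Col2a1 has no point for sh1137 over scrambled 1, where it had 0 and 3 counts. Col14a1, Col15a1, Col16a1 and Col18a1 are above 1 in both pairs, and Col10a1 and Col23a1 lie near 1 in both.

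The fibril-forming chains of stromal tissue had a different order of libraries. Col1a1, the alpha1 chain of type I collagen (identifier 12842, mm9 chr11:94797584-94813170, plus strand), had 29 counts or 0.834 CPM in sh1137 and 2248 counts or 51.8 CPM in sh830, against 4 counts or 0.0998 CPM in scrambled 1 and 369 counts or 8.65 CPM in scrambled 2. Its partner Col1a2 (identifier 12843, mm9 chr6:4455697-4491543, plus strand) had 28 counts or 0.805 CPM in sh1137 and 2120 counts or 48.9 CPM in sh830, against 34 counts or 0.848 CPM in scrambled 1 and 856 counts or 20.1 CPM in scrambled 2. Both chains were high in sh830 and scrambled 2 and under 1 CPM in the other libraries, so the groups overlapped. Per kilobase, Col1a1 and Col1a2 stood at 11.0 and 4.88 CPM per kb in sh830, against 1.84 and 2.01 CPM per kb in scrambled 2.

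Type V chains, which help to start type I fibrils, followed type I. Col5a2 (identifier 12832, mm9 chr1:45431176-45560127, minus strand) had 27 counts or 0.776 CPM in sh1137 and 2714 counts or 62.6 CPM in sh830, against 8 counts or 0.200 CPM in scrambled 1 and 642 counts or 15.1 CPM in scrambled 2. Col5a1 (identifier 12831, mm9 chr2:27741945-27895030, plus strand) had 10 counts or 0.287 CPM in sh1137 and 668 counts or 15.4 CPM in sh830, against 3 counts or 0.0749 CPM in scrambled 1 and 95 counts or 2.23 CPM in scrambled 2. The FACIT Col12a1, which coats type I fibrils, had 10 counts or 0.287 CPM in sh1137 and 1362 counts or 31.4 CPM in sh830, against 7 counts or 0.175 CPM in scrambled 1 and 173 counts or 4.06 CPM in scrambled 2. All these chains were far higher in 1 library of each group than in the other. Col2a1, the main cartilage collagen, had 0 counts in sh1137 and 167 counts or 3.85 CPM in sh830, against 3 counts or 0.0749 CPM in scrambled 1 and 144 counts or 3.38 CPM in scrambled 2. Col8a1, a short-chain collagen of vessel walls, had 0.862 CPM in sh1137 and 7.77 CPM in sh830, against 0.524 CPM in scrambled 1 and 1.24 CPM in scrambled 2, with smaller steps between libraries.

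The split within a group was wider than the difference between groups for these chains. Within the knockdown group, sh830 exceeded sh1137 109-fold for Col12a1, 80.6-fold for Col5a2, 62.2-fold for Col1a1, 60.7-fold for Col1a2 and 53.6-fold for Col5a1. Within the scrambled group, scrambled 2 exceeded scrambled 1 86.7-fold for Col1a1, 75.4-fold for Col5a2, 29.8-fold for Col5a1, 23.7-fold for Col1a2 and 23.2-fold for Col12a1; the ratio of Col5a1 rests on 3 counts in scrambled 1, with a 95% exact interval of 9.88 to 147. The ratio of sh830 over scrambled 2 was 1.14 for Col2a1 (95% exact interval 0.907 to 1.43), 2.43 for Col1a2 (2.25 to 2.64), 4.16 for Col5a2 (3.81 to 4.54), 5.99 for Col1a1 (5.36 to 6.70), 6.91 for Col5a1 (5.57 to 8.66) and 7.74 for Col12a1 (6.60 to 9.12). These ratios set 1 library against 1 library, and their intervals cover counting error only, so differences between the chains were not tested.

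**Figure D3:**
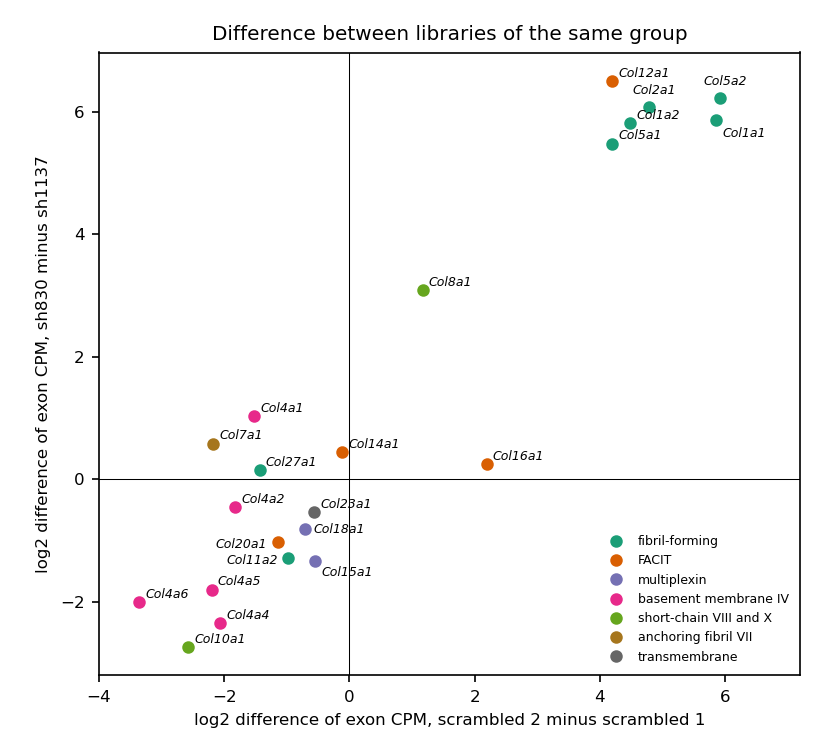
Difference within each group for the collagens with a mean of at least 1 CPM, as log2 exon CPM with a prior count of 2: sh830 minus sh1137 on the vertical axis and scrambled 2 minus scrambled 1 on the horizontal axis, coloured by collagen class. Fibril-forming Col1a1, Col1a2, Col2a1, Col5a1 and Col5a2 and the FACIT Col12a1 lie together at the upper right, apart from the other collagens.

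In the tests, 4 of these chains were called with the library term: Col1a1 at 2.58 ± 0.18 (edgeR adjusted p 0.0048), Col5a2 at 1.98 ± 0.15 (0.0053), Col5a1 at 2.59 ± 0.33 (0.013) and Col12a1 at 2.54 ± 0.45 (0.024). Col1a2 was not, at 0.86 ± 0.30 (edgeR adjusted p 0.11), nor was Col2a1, at -0.14 ± 0.59 (edgeR adjusted p 0.89). With group alone the log2 difference of Col1a1 was 2.53 ± 2.32 (edgeR adjusted p 0.98), an error nearly as large as the difference. The direction depended on which library was used. Without sh830, the Col1a1 difference was -2.61 (edgeR adjusted p 0.52) and that of Col1a2 was -3.91 (edgeR adjusted p 0.049). Without sh1137, they were 3.50 (edgeR adjusted p 0.00016) and 2.16 (edgeR adjusted p 0.028). Col5a2, Col5a1 and Col12a1 likewise had differences of -3.51, -2.20 and -3.08 without sh830, at edgeR adjusted p of 0.18, 0.77 and 0.41. Without sh1137 they had 2.97, 3.68 and 3.83, at edgeR adjusted p of 0.0014, 0.00041 and 1.3e-05. For Col2a1 the difference was -9.21 without sh830 (edgeR adjusted p 0.047), where sh1137 had 0 counts, so that value depends on the prior count.

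Type IV collagens other than Col4a1 were higher in the intron-rich libraries, sh1137 and scrambled 1, than in sh830 and scrambled 2. Col4a5, a chain of kidney, lung and skin basement membranes (identifier 12830, mm9 chrX:137909962-138123778, plus strand), had 1689 counts or 48.6 CPM in sh1137 and 604 counts or 13.9 CPM in sh830, against 1599 counts or 39.9 CPM in scrambled 1 and 368 counts or 8.63 CPM in scrambled 2. Its neighbour Col4a6 on the opposite strand, with 1342 bases between the annotated starts, had 1.70 CPM in sh1137 and 0.392 CPM in sh830, against 1.87 CPM in scrambled 1 and 0.141 CPM in scrambled 2. Both chains were high in sh1137 and scrambled 1, and the groups overlapped. Col4a4, which sits head to head with Col4a3 with 71 bases between them, had 2.41 CPM in sh1137 and 0.438 CPM in sh830, against 1.72 CPM in scrambled 1 and 0.375 CPM in scrambled 2. Per kilobase, Col4a5 was above Col4a6 in every library, at 7.49 against 0.226 CPM per kb in sh1137 and 6.15 against 0.250 CPM per kb in scrambled 1.

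Col4a1 and Col4a2, the main chains of most basement membranes, lie head to head on chromosome 8 with 2 bases between their annotated starts. Col4a1 had 63 counts or 1.81 CPM in sh1137 and 164 counts or 3.78 CPM in sh830, against 117 counts or 2.92 CPM in scrambled 1 and 42 counts or 0.985 CPM in scrambled 2. Col4a2 had 142 counts or 4.08 CPM in sh1137 and 129 counts or 2.97 CPM in sh830, against 252 counts or 6.29 CPM in scrambled 1 and 74 counts or 1.74 CPM in scrambled 2. Neither separated the groups, and the knockdown pairs went opposite ways: sh1137 was at 0.620 times scrambled 1 for Col4a1 and 0.649 times for Col4a2, whereas sh830 was at 3.84 and 1.71 times scrambled 2. No type IV chain was called in exons with either fit by edgeR. The class thus held 6 chains tested and 0 called.

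Among the remaining collagens at this level, Col10a1, the short-chain collagen of hypertrophic cartilage, had 9.28 CPM in sh1137 and 1.36 CPM in sh830, against 8.76 CPM in scrambled 1 and 1.43 CPM in scrambled 2. It lies within the span of Nt5dc1 on the opposite strand and had 0 intron counts, and whether strand was used in counting is not given, so these reads could belong to either gene. Col23a1, a transmembrane collagen, had 3.51 CPM in sh1137 and 2.42 CPM in sh830, against 3.49 CPM in scrambled 1 and 2.35 CPM in scrambled 2. Here sh1137 was close to scrambled 1 and sh830 to scrambled 2. Col7a1, the anchoring fibril collagen of skin, had 1.93 CPM in sh1137 and 2.93 CPM in sh830, against 1.97 CPM in scrambled 1 and 0.399 CPM in scrambled 2; it holds Mir711 on its own strand. None of these 3 was called by edgeR with or without the library term.

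The 21 collagens below a mean of 1 CPM had between 0 and 143 exon counts in total over the 4 libraries. Several again had most of their counts in sh830 and scrambled 2, and others had the opposite order. Col3a1, the type III chain that accompanies type I in soft tissue, had 9 counts in sh1137 and 48 in sh830, against 0 in scrambled 1 and 42 in scrambled 2. Col11a1, of cartilage, had 0 counts in sh1137 and 93 in sh830, against 1 in scrambled 1 and 41 in scrambled 2. Col6a1, a chain of the beaded filaments around cells, had 0 counts in sh1137 and 35 in sh830, against 0 in scrambled 1 and 34 in scrambled 2. Col6a2 had 2 counts in sh1137 and 22 in sh830, against 2 in scrambled 1 and 14 in scrambled 2. Col5a3 stood apart, with 4 counts in sh1137 and 124 in sh830, against 5 in scrambled 1 and 10 in scrambled 2, so it was high in 1 library. In CPM, Col4a3, Col9a3, Col17a1 and Col19a1 were lower in both sh830 and scrambled 2 than in the other libraries. So were Col6a6, Col8a2, Col9a2 and Col25a1, on fewer than 20 exon counts each. Col17a1 had 50 counts in sh1137 and 11 in sh830, against 54 in scrambled 1 and 17 in scrambled 2. Over genes with a mean of at least 1 CPM, 27.2% were above and 35.5% below. Per kilobase of exon, the type I chain Col1a2 stood at 4.88 CPM per kb in sh830 and 2.01 CPM per kb in scrambled 2, whereas Col3a1 stood at 0.139 and 0.123 CPM per kb in the same libraries. Col9a3 overlaps Tcfl5 on the opposite strand and is uncertain.

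Introns were tested in the same way to ask whether unspliced collagen RNA followed the exons. Of 43 collagens, 27 passed the filter, and with group alone 0 were called by edgeR, as was 0% of 12405 genes; at an unadjusted p under 0.05, 5 collagens were higher and 0 lower, among 566 genes higher and 142 lower. DESeq2 called 2 higher, Col14a1 and Col15a1, with 1.27% of genes higher and 0.0645% lower. With the library term edgeR called 7 higher and 0 lower, with 5.97% of genes higher and 3.93% lower. Col14a1 had 2893 intron counts in sh1137 and 936 in sh830, against 388 in scrambled 1 and 95 in scrambled 2. Scaled to the intron totals, that was 7.37-fold for sh1137 over scrambled 1 and 9.22-fold for sh830 over scrambled 2, and its log2 difference with the library term was 2.985 ± 0.12 (edgeR adjusted p 0.00049). Col15a1 had 2000 intron counts in sh1137 and 816 in sh830, against 127 in scrambled 1 and 108 in scrambled 2, a log2 difference of 3.39 ± 0.27 (edgeR adjusted p 0.0021). The other 5 called were Col16a1, Col18a1, Col20a1, Col4a5 and Col8a1, at log2 differences of 3.33 ± 0.71, 0.87 ± 0.18, 1.01 ± 0.18, 0.70 ± 0.15 and 3.42 ± 0.66. Col16a1 had 42 and 15 intron counts in sh1137 and sh830, against 3 and 2 in scrambled 1 and 2. Col8a1 had 6 and 88 in the same order, against 0 and 8, so both differences rest on few counts. Scaled to the intron totals, Col8a1 and Col4a5 overlapped between groups, the latter at 46.1 and 7.44 CPM against 29.9 and 3.70 CPM. Col4a5 and Col8a1 were called in introns and not in exons, and Col1a1, Col5a1, Col5a2, Col11a2 and Col12a1 were called in exons and not in introns, where Col1a1 had between 1 and 8 counts a library.

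The balance of intron and exon counts was read for each collagen beside that of its library. Col1a1 had 0.27% of its counts in introns in sh830 (95% Wilson interval 0.12 to 0.58) and 2.12% in scrambled 2 (1.08 to 4.13), below the 15.2% and 14.6% of all genes there. Col1a2 had 1.49% in sh830 and 2.62% in scrambled 2, and Col5a2 had 4.03% and 6.00%. Col15a1 was above the share of every library, with 83.2% in sh1137 and 80.4% in sh830, against 80.4% in scrambled 1 and 83.1% in scrambled 2, nearly the same in all libraries. Col25a1, a transmembrane collagen with 4 exon counts in total, had 338 intron counts and was also above the library's share in each. Col14a1 went with the libraries and the groups, at 52.1% in sh1137 and 17.2% in sh830, against 34.7% in scrambled 1 and 11.7% in scrambled 2. Intron shares depend on intron length and are compared here only for the same gene across libraries or against the library's own share.

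**Figure D4:**
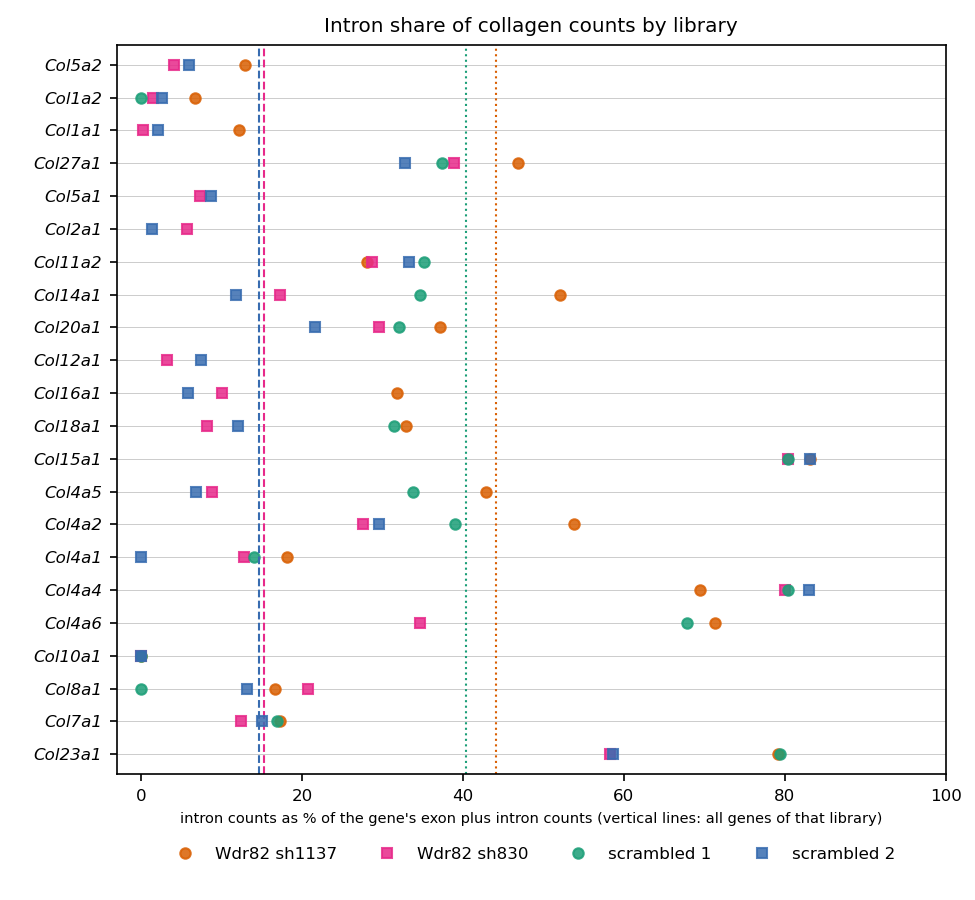
Percent of exon plus intron counts that fell in introns, per collagen and library, for points with at least 20 counts; vertical lines give each library's share over all genes, dashed for sh830 and scrambled 2 and dotted for the others. In sh830 and scrambled 2, type I and V chains lie below the lines of those libraries, and Col15a1 lies near 80% in all 4 libraries.

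Genes that mark stromal cells or make collagen were read beside the fibril-forming chains. Lox, which cross-links collagen, had 0.805 CPM in sh1137 and 47.2 CPM in sh830, against 0.0998 CPM in scrambled 1 and 6.38 CPM in scrambled 2. Sparc, a collagen-binding matrix protein, had 0.575 CPM in sh1137 and 49.4 CPM in sh830, against 0 CPM in scrambled 1 and 7.32 CPM in scrambled 2. Serpinh1, the collagen chaperone, had 0 CPM in sh1137 and 11.8 CPM in sh830, against 0.0499 CPM in scrambled 1 and 4.97 CPM in scrambled 2. These genes were high in the same libraries as Col1a1 and Col1a2. So was Fbln2, another matrix protein, at 0.115 CPM in sh1137 and 14.1 CPM in sh830, against 0 CPM in scrambled 1 and 4.32 CPM in scrambled 2. Lox, Sparc, Serpinh1 and Fbln2 were picked from their lists for the widest difference between these library pairs. Their split is therefore not independent support. Of the 20 fibroblast matrix genes listed, 9 were above in both sh830 and scrambled 2 and 2 were below in both, beside 27.2% above and 35.5% below over genes with a mean of at least 1 CPM. Of the 33 genes of collagen synthesis 9 were above and 6 below, and of the 15 fibroblast identity genes 3 were above and 3 below. The lists were counted without that limit on the mean, so the shares over genes cover a different kind of set. The matrix list summed to 114 and 374 CPM in sh1137 and sh830, against 113 and 67.3 CPM in scrambled 1 and 2. Fn1, the gene of fibronectin and a member of that list, had another order, at 70.5 and 220 CPM in sh1137 and sh830, against 73.6 and 31.0 CPM in scrambled 1 and 2.

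Defining markers gave a mixed reading. Of the matrix list, 6 genes in sh1137 and 3 in sh830, against 7 in scrambled 1 and 4 in scrambled 2, were at 0, with Eln and Fmod at 0 in all 4 libraries. Of the fibroblast identity genes, Dpt, Tcf21 and Meox2 were at 0 in all 4 libraries. Others were low in sh830 and scrambled 2. Fap, a protease of activated fibroblasts, had 5.06 CPM in sh1137 and 0.738 CPM in sh830, against 4.02 CPM in scrambled 1 and 0.985 CPM in scrambled 2. Snai2, a transcription factor of mesenchymal cells, had 3.97 CPM in sh1137 and 0.623 CPM in sh830, against 2.97 CPM in scrambled 1 and 0.516 CPM in scrambled 2. The matrix proteoglycan Vcan had the same order, at 35.3 CPM in sh1137 and 9.08 CPM in sh830, against 32.0 CPM in scrambled 1 and 11.5 CPM in scrambled 2. It was among the 2 matrix genes below in both sh830 and scrambled 2, against 9 above. Of the 15 marrow stromal genes listed, 3 were above in both and 2 below in both, beside the same 27.2% and 35.5%. In that list, Grem1 had 0.0575 and 5.10 CPM in sh1137 and sh830, against 0.0499 and 0.868 CPM in scrambled 1 and 2. Kitl had 8.02 and 2.95 CPM in sh1137 and sh830, against 13.1 and 5.68 CPM in scrambled 1 and 2. Pdgfra had 2 counts in sh1137 and 53 in sh830, against 2 in scrambled 1 and 27 in scrambled 2, and Thy1 had 1 count in sh1137 and 2 in sh830, against 0 in both scrambled libraries; these genes, and Dcn, were chosen after their values were seen. Dcn, a proteoglycan that binds fibrils, had 2 counts in sh1137 and 176 in sh830, against 2 in scrambled 1 and 26 in scrambled 2. The identity list summed to 7860 and 4029 CPM in sh1137 and sh830, against 10628 and 4193 CPM in scrambled 1 and 2, of which Lrp1 and S100a4, also expressed by macrophages, made the greater part. Col1a1, Col1a2, Col5a1, Col5a2, Col2a1 and Col12a1 were thus high in the libraries where Lox, Sparc, Serpinh1, Fbln2 and Grem1 were high. Fap, Snai2, Vcan and Kitl were low in those libraries. Except for Vcan, the genes set beside the collagens here were picked for the widest difference between these library pairs, in either direction. That they split the libraries was thus fixed by the choice and is not independent support. Col14a1, Col18a1 and Col4a5 had at least 8.63 CPM in all 4 libraries, including sh1137 and scrambled 1 where type I chains were under 1 CPM. Col15a1 was itself under 1 CPM in both scrambled libraries, at 0.774 CPM in scrambled 1 and 0.516 CPM in scrambled 2. The type IV chain Col4a3 had 3 counts in scrambled 2. The collagens as a whole did not behave as 1 readout, and the part of other cells in any of these differences was not tested.

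**Figure D5:**
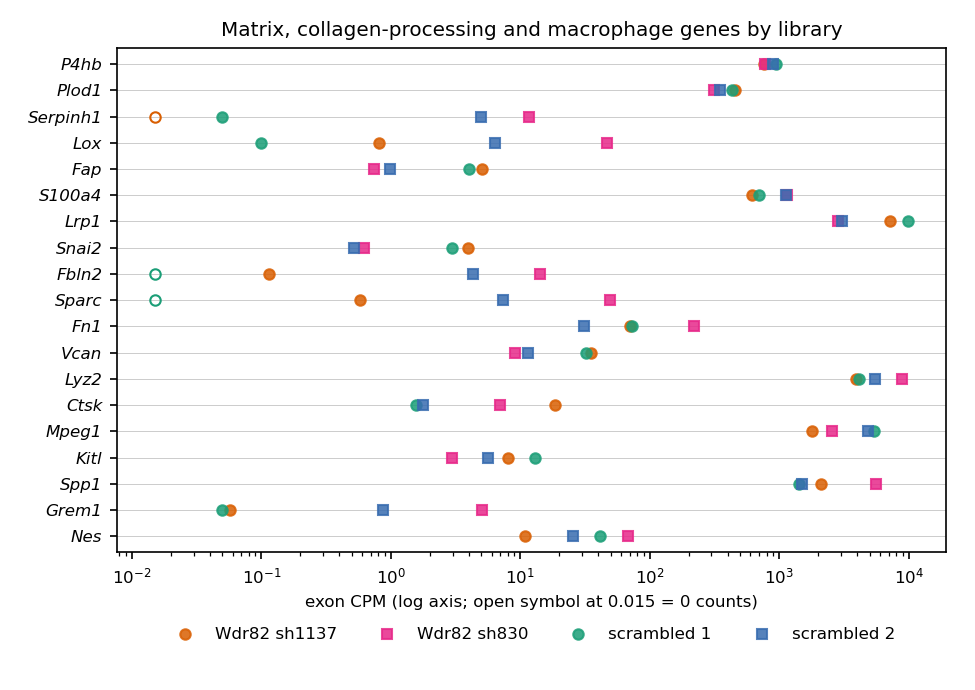
Exon level (CPM, log axis) in each library of genes of collagen synthesis, matrix, fibroblast identity, marrow stroma and macrophages; open symbols stand for 0 counts, drawn at the axis floor. Lox, Sparc, Serpinh1 and Fbln2 are high in sh830 and scrambled 2, whereas Fap, Snai2, Vcan and Kitl are lower there than in the other libraries. Lyz2 and Mpeg1 are high in all 4 libraries.

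The machinery of collagen synthesis was tested in the same fits. Of 33 genes listed 29 were tested, and with the library term 9 were called higher and 1 lower by edgeR, against 6.06% and 7.79% of all genes; with group alone 0 were called. The genes called higher were Bmp1, Creb3l1, Crtap, Fkbp10, Lox, Loxl1, P3h3, P3h4 and P4ha2, and the gene called lower was Loxl3. Bmp1, the protease that trims procollagen, had 9 counts in sh1137 and 564 in sh830, against 1 in scrambled 1 and 42 in scrambled 2. Lox was called at 2.84 ± 0.19 (edgeR adjusted p 0.0045). P4hb did not share the order of Lox: this gene, a subunit of prolyl hydroxylase, had 766 and 773 CPM in sh1137 and sh830, against 951 and 890 CPM in scrambled 1 and 2. Of 9 collagen receptors tested, 3 were called higher with the library term (Ddr1, Ddr2 and Mrc2), 0 lower and 0 with group alone by edgeR. Ddr2, a kinase receptor for fibrillar collagen, had 44 counts in sh1137 and 406 in sh830, against 16 in scrambled 1 and 64 in scrambled 2.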

How the data were processed

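Total RNA from 4 libraries (Wdr82 hairpins sh1137 and sh830, 1 library each, and 2 scrambled libraries) was analysed from the authors' deposited counts of reads over exons and over introns of each gene, whole numbers that were not normalized. The deposited annotation columns gave mm9 coordinates and strand of UCSC known genes, per the annotation files. Per the submitters' processing notes, TopHat 1.3.1, Cufflinks 2.1.1, Cuffdiff 2.1.1 and SICER were used in the study; the counting tool and its use of strand are not given in the sources used here. CPM was computed over the exon counts of all genes. Symbols came from the RefSeq gene table, which matched 21615 of 21761 identifiers. Regions outside genes in the exon files were fitted with the genes, and adjusted p-values cover all features.

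Tests used edgeR 4.0.16 in R 4.3.3 (TMM factors, filterByExpr, quasi-likelihood F-test, Benjamini-Hochberg adjustment, threshold 0.05), with group as the only term; a log2 difference is knockdown over scrambled, and its SE is its size divided by the square root of F. DESeq2 1.42.0, other factors, no filter, genes alone, each library left out and a library term were alternatives. Ratio intervals are exact binomial, share intervals Wilson, at 95%. Collagens with a mean of at least 1 CPM or called in any fit are named; at most 4 genes of each other list were named by rule (the highest means and the widest differences between libraries), beside those called. The collagens, the gene lists and the library term were chosen with earlier results of these data known.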

Additional observations from a re-analysis of the deposited data

Results flagged for a closer look

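The exon counts also covered regions outside genes, some named for the end of a gene. These regions were fitted together with the genes and are described only here. In the deposited annotation they are marked as SICER regions from hairpin-carrying against vector-carrying cells, so their direction is not independent evidence. The region from 47333000 to 47338499 on mm9 chromosome 4, which starts 6963 bases after the annotated end of Col15a1, had 81 counts or 2.33 CPM in sh1137 and 46 counts or 1.06 CPM in sh830, against 15 counts or 0.374 CPM in scrambled 1 and 14 counts or 0.328 CPM in scrambled 2. Both knockdown libraries were above both scrambled ones, and the log2 difference with the library term was 2.11 ± 0.46 (edgeR adjusted p 0.039). The region from 47340000 to 47345999, which starts 13963 bases after that end, had 86 counts or 2.47 CPM in sh1137 and 23 counts or 0.53 CPM in sh830, against 19 counts or 0.474 CPM in scrambled 1 and 8 counts or 0.188 CPM in scrambled 2, at 1.94 ± 0.48 with the library term (edgeR adjusted p 0.051).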

How the results depend on the processing

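No paired analysis was possible because the hairpin libraries carry no replicate number, so the labels pair no libraries; the library term, which sets sh1137 with scrambled 1 and sh830 with scrambled 2, pairs them by intron share and not by label. By group alone 0 collagens were called in exons, against 10 higher with the library term and 2 with DESeq2; leaving out 1 library gave 0 to 8 higher and 0 to 2 lower, the 8 without sh1137 and the 2 lower (Col1a2 and Col2a1) without sh830. In introns the library term gave 7, DESeq2 2 and no filter 2, and leaving out 1 library 1 to 6. Over all marker lists the library term gave 23 higher and 9 lower and DESeq2 5 and 3, with 1 to 16 higher and 0 to 2 lower when 1 library was left out. The median log2 difference of the collagens tested was 0.86 in exons (all genes -0.01; 0.62 to 1.52 with 1 library left out) and 0.95 in introns (all genes -0.01; 0.24 to 1.69), and 0.57 in introns for sh1137 against scrambled 1 alone; the ratio of summed intron shares was 2.21 without Col14a1 and Col18a1. Signs turned, with no call on either side, for Col10a1 in exons (DESeq2 0.0048, other factors 0.0039, no filter 0.0081), Col4a6 in exons (library term 0.35, DESeq2 0.012, other factors 0.0097, no filter 0.018) and introns (-0.00018, -0.014 and -0.038 without the library term), Col2a1 in exons (library term -0.14) and Col1a1 in introns (library term 0.16). With 1 library left out, signs also turned in exons for Col4a5 (-0.76 to 1.67), Col5a2 (-3.51 to 7.37), Col1a2 (-3.91 to 4.95), Col1a1 (-2.61 to 8.08), Col12a1 (-3.08 to 6.56), Col10a1 (-1.86 to 1.70), Col5a1 (-2.20 to 6.73), Col4a2 (-0.82 to 0.87), Col23a1 (-0.26 to 0.18), Col8a1 (-0.20 to 3.11), Col4a1 (-0.19 to 1.39), Col2a1 (-9.21 to 4.71), Col4a4 (-1.22 to 1.72) and Col4a6 (-1.30 to 2.68) and in introns for Col18a1 (-0.026 to 1.51), Col4a5 (-1.59 to 3.17), Col5a2 (-3.80 to 6.07), Col1a2 (-3.83 to 8.02), Col12a1 (-4.04 to 4.74), Col5a1 (-1.24 to 4.99), Col4a2 (-0.16 to 0.70), Col23a1 (-0.38 to 0.038) and Col4a6 (-1.87 to 3.84). Of the alternatives for single collagens, 260 kept direction and side, 48 gained a call and 45 turned sign; the cause was not tested. In fits without 1 library, the lone library is assumed to vary like the other group, and none could be fitted with the library term. Low counts limit Col3a1, the type VI chains and the intron tests of fibril-forming chains.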

Other observations

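Other cell types that marrow cultures could hold were read in the same libraries. Of 8 endothelial genes tested, 3 were called higher with the library term (Pecam1, Cdh5 and Vwf) and 0 lower, beside 6.06% higher and 7.79% lower over all genes, and 0 were called with group alone by edgeR. Pecam1, an adhesion molecule of endothelium that myeloid cells also carry, had 18.3 CPM in sh1137 and 5.88 CPM in sh830, against 2.25 CPM in scrambled 1 and 0.821 CPM in scrambled 2. Cdh5, the endothelial cadherin, had 12.1 CPM in sh1137 and 7.91 CPM in sh830, against 1.40 CPM in scrambled 1 and 0.985 CPM in scrambled 2. Both knockdown libraries were above both scrambled ones for these genes. The list as a whole did not share that order: its median log2 difference with the library term was 0.03, and Kdr, Tie1, Esam, Egfl7 and Flt1 were not called, at -0.17 ± 0.11, -0.42 ± 0.44, -0.88 ± 0.53, -0.23 ± 0.32 and 0.23 ± 0.52. Of the 13 genes listed, with no limit on level, 6 were lower in both sh830 and scrambled 2 and 1 was higher in both. Over genes with a mean of at least 1 CPM the shares were 35.5% and 27.2%. Robo4, another endothelial gene, was at 0 in all 4 libraries. Pdgfrb, a receptor of pericytes and fibroblasts, had 45.6 CPM in sh1137 and 36.3 CPM in sh830, against 8.81 CPM in scrambled 1 and 8.96 CPM in scrambled 2, and was the only one of 7 fibroblast identity genes called, at 2.13 ± 0.13 with the library term (edgeR adjusted p 0.0039).

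The other lists are counted here with the library term and edgeR, to be read beside the same 6.06% and 7.79% of all genes. Of 14 macrophage genes 1 was higher (Ctsk) and 5 lower (Aif1, Cd68, Fcgr1, Mpeg1 and Spi1). The matrix list had 3 higher of 13 tested (Fbln2, Sparc and Tnc), the marrow stromal list 1 higher and 1 lower of 7 (Runx2 and Kitl), the smooth muscle list 1 higher and 1 lower of 7 (Acta2 and Cspg4) and the chondrocyte list 1 higher and 1 lower of 3 (Matn1 and Matn3). In the adipocyte and epithelial lists 1 gene each was tested and 0 called. Spp1, a matrix protein that osteoblasts and macrophages both make, had 2092 CPM in sh1137 and 5555 CPM in sh830, against 1424 CPM in scrambled 1 and 1504 CPM in scrambled 2.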
